A study of Mus musculus with 3 samples.

Results

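The genes encoding myostatin (Mstn), the activin βA subunit (Inhba), the TGF-β ligands (Tgfb1, Tgfb2 and Tgfb3), the activin type II receptors (Acvr2a and Acvr2b) and the follistatin family (Fst, Fstl3 and Fstl1) were followed in RNA-seq libraries of c2c12, a mouse myoblast line that fuses into myotubes once serum is lowered. They were taken by gene symbol, and all 10 symbols were found among the 23238 symbols of the count files. CPM is the count of a gene scaled to the library size. It reached 1 in any library for 9 of the 10, all but Mstn, and for 13169 genes in all. Cells were induced with 2% horse serum in DMEM on a tissue culture plate (TCP), on methacrylated gelatin (GelMA), or on 15% methacrylated gelatin mixed with 1% poly sodium 4-styrenesulfonate (GelMA-PSS), a sulfonated polymer used as a heparin mimic. The RNA was collected after 2 days of induction. TCP and GelMA served as the controls. The label of the plain GelMA library gives no gelatin percentage, but the methods give 15% for the hydrogel with and without PSS.

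Myostatin and the activins are secreted dimers that bind the type II receptors ActRIIA and ActRIIB, which recruit a type I receptor that phosphorylates SMAD2 and SMAD3. The TGF-β ligands are released as latent complexes and reach the same SMAD proteins through their own receptor pair. Follistatin and follistatin-like 3 bind activin and myostatin outside the cell and block their access to the receptors, and in muscle this pathway is known for restraining fiber growth and myoblast differentiation.

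Each substrate has 1 library, so no difference below could be checked against replicates and no p-value is given. The comparisons share libraries, since each library enters 2 of the 3. The libraries held between 87071144 and 192171443 counts. The 8 muscle markers examined, among them Myod1, Myog and Des, were each above a CPM of 1 in every library, with a summed CPM of 22463 on TCP, 16876 on GelMA and 13806 on GelMA-PSS. The 9 markers of other cell types had a summed CPM between 3.06 and 4.34, with Ptprc, which marks leukocytes, at 0 counts on TCP and GelMA and Krt18, which marks epithelium, at 0 on TCP and GelMA-PSS. In bulk RNA, fewer cells of a type and less RNA per cell cannot be told apart. Levels are given as CPM scaled with TMM factors, which correct for differences in library composition, with 95% Wilson intervals. Intervals of a fold were taken from the split of the 2 counts by the exact Clopper-Pearson method. All these intervals cover counting error only and not the variation between cultures.

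A gene was called past the threshold when log2(CPM + 1) differed by at least 2-fold, the fold named in the methods of the study. On this scale the change of low genes is understated. Across the genes kept, the ratios of GelMA-PSS followed transcript length, and over 13069 genes Spearman's rho with length was -0.66 for GelMA-PSS against GelMA and -0.50 for GelMA-PSS against TCP. The median log2 ratio against GelMA was 0.58 for the 10% of shortest transcripts and -0.62 for the 10% of longest ones. Many of the ratios of GelMA-PSS are therefore also given after a loess correction for transcript length and GC content. The correction left a rho of -0.03 against GelMA and -0.04 against TCP.

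The clearest differences lay in the follistatin family, where Fst and Fstl1 moved in opposite directions. Fst stood highest on TCP and lowest on GelMA-PSS, Fstl1 stood lowest on TCP and highest on GelMA-PSS by CPM, and plain GelMA lay between for both genes, except that Fstl1 was marginally higher on GelMA by TPM. Tgfb1, Tgfb3 and Acvr2a had the same order as Fst with smaller differences. Tgfb2 had it too, but its step from GelMA to GelMA-PSS was within counting error. Inhba was highest on GelMA, and Mstn was at the limit of detection. The bar plot of CPM by library shows these patterns for all 10 genes.

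**Figure D1:**
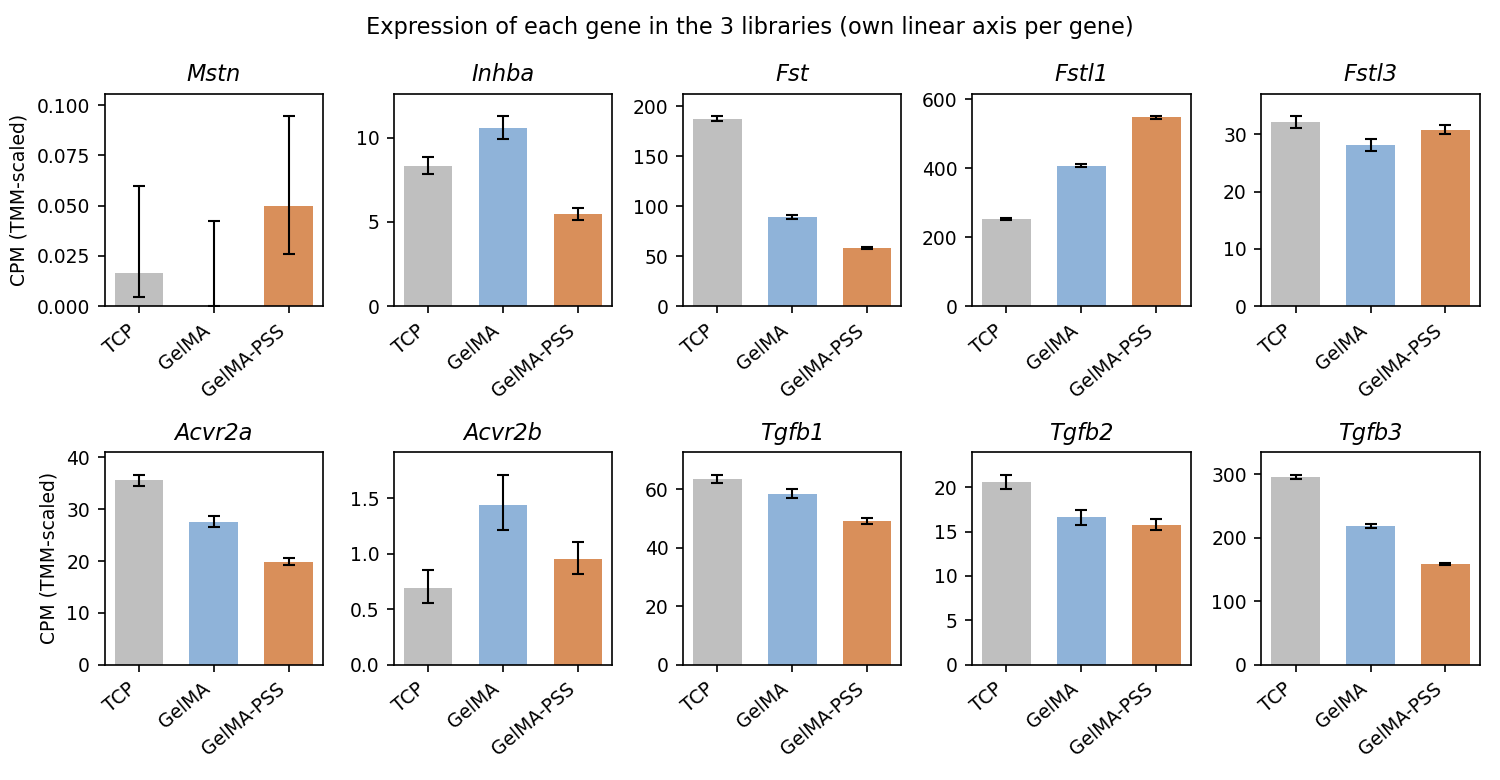
Level of each of the 10 genes as TMM-scaled CPM in the TCP, GelMA and GelMA-PSS libraries, with a linear axis from 0 for each gene, bars for the single library of each substrate and error bars for the 95% Wilson interval, which covers counting error only. Fst fell from 187 to 58.0 and Fstl1 climbed from 253 to 547 between TCP and GelMA-PSS, and Mstn stayed below a CPM of 0.05.

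The promoters of Mstn, Tgfb1 and Acvr2a are shown. Mstn is a ligand gene at the limit of detection, and Tgfb1 is a ligand gene measured in every library. Acvr2a is the more abundant of the activin type II receptor genes Acvr2a and Acvr2b. RefSeq windows (GRCm38.p6) were at hand for 8 of the 10 genes, all but Fst and Tgfb3. They run from 250 bases before to 50 bases after a start site. The E-box CANNTG, which MyoD and other myogenic factors bind, the SMAD box CAGAC and the AP-1 site TGANTCA were searched on both strands, and 72.3%, 49.6% and 7.81% of 32851 windows of this length held them. The 250 bases before the start are printed from 5′ to 3′ on the strand of the gene, all 3 genes being on the plus strand, with the matches in capitals. They lie at chr1:53061390-53061639 for Mstn, chr7:25686752-25687001 for Tgfb1 and chr2:48813859-48814108 for Acvr2a.
Mstn promoter: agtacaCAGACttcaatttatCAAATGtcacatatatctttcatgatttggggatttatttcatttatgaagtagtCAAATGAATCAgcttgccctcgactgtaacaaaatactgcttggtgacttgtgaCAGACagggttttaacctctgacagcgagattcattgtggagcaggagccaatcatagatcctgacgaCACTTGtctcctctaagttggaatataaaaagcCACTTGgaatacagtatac
Tgfb1 promoter: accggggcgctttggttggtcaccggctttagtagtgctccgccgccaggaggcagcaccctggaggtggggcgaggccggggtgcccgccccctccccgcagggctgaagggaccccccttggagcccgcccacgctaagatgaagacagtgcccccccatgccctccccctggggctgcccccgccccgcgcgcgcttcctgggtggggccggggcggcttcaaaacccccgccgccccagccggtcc
Acvr2a promoter: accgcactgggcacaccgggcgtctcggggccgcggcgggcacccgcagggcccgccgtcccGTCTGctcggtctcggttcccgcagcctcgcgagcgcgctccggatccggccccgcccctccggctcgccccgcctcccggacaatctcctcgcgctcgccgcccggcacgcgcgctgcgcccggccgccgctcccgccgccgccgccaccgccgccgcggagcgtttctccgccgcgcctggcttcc

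The Mstn window held 4 E-boxes, 2 SMAD boxes and 1 AP-1 site, and 1 of the E-boxes overlaps the AP-1 site. In the Tgfb1 window none of these motifs was found, and the Acvr2a window held 1 SMAD box, printed as GTCTG because the match is on the other strand. Fstl3 had 3 E-boxes and 2 SMAD boxes, Tgfb2 had 1 and 2, Acvr2b had 1 SMAD box, and the windows of Inhba and Fstl1 had none of the 3 motifs. A match is a run of letters and not a measured site.

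Fst encodes follistatin and lies on chromosome 13 from 114452290 to 114458951 of GRCm38, on the minus strand. Like Tgfb2 and Tgfb3 it overlaps antisense or opposite-strand gene models that the count files do not list, so reads from these could be counted with it. It had 22814 counts on TCP, 8088 on GelMA and 10499 on GelMA-PSS, which is a CPM of 187 (95% interval from 185 to 190), 89.0 (from 87.1 to 91.0) and 58.0 (from 56.9 to 59.1). The 3 intervals did not overlap. Fst was 2.11-fold lower on GelMA than on TCP (interval from 2.05 to 2.16), 1.54-fold lower on GelMA-PSS than on GelMA (from 1.49 to 1.58) and 3.23-fold lower on GelMA-PSS than on TCP (from 3.16 to 3.31). It was the only one of the 10 genes called lower on GelMA than on TCP, where 0.296% of all genes were called lower, and the only one called lower on GelMA-PSS than on TCP, where 3.13% were. Its transcript, with 1851 bases, is shorter than the median of 2914 bases over the genes kept. With the length and GC correction its log2 ratio on GelMA-PSS went from -0.61 to -0.87 against GelMA and from -1.68 to -1.87 against TCP. Against TCP, 0.122% of genes had a corrected ratio as low as that of Fst. The summed CPM of the muscle markers had the same order as Fst, mostly through embryonic myosin (Myh3, with 10182 on TCP, 6355 on GelMA and 3037 on GelMA-PSS), while Myod1 was at 94.3, 105 and 119. Their part in the differences between members was not tested.

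Fstl1 encodes a secreted glycoprotein that carries a follistatin domain. The gene lies on chromosome 16 from 37776873 to 37836514 on the plus strand. It had 30782 counts on TCP, 36932 on GelMA and 99054 on GelMA-PSS, which gives a CPM of 253 on TCP, 406 on GelMA (from 402 to 411) and 547 on GelMA-PSS (from 543 to 550). On this scale both steps were upward and wider than the counting error. Fstl1 was 1.61-fold higher on GelMA than on TCP (from 1.58 to 1.63), 1.35-fold higher on GelMA-PSS than on GelMA (from 1.33 to 1.36) and 2.16-fold higher on GelMA-PSS than on TCP (from 2.14 to 2.19). It was called higher in the last of these comparisons, as were 3.72% of all genes, and none of the other members was. In GelMA against TCP, where 0.706% of genes were called higher, and in GelMA-PSS against GelMA, where 1.77% were, 0 members were called higher. Its transcript of 3789 bases is longer than the median, and the corrected log2 ratios were 0.49 against GelMA and 1.17 against TCP, close to the uncorrected 0.43 and 1.11. TPM are counts divided by transcript length and scaled to the same sum in each library, with no TMM factor. On the TPM scale the log2 ratio of Fstl1 against GelMA was -0.04. The median of all genes on that scale was -0.37, so Fstl1 lay above it.

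Fstl3 encodes the second secreted inhibitor of activin and myostatin, on chromosome 10 from 79777272 to 79782630. It had 3910 counts on TCP, 2555 on GelMA and 5571 on GelMA-PSS, a CPM of 32.1, 28.1 and 30.8. Unlike Fst, it differed little between substrates, with a ratio of GelMA-PSS to TCP of 0.958 (from 0.919 to 0.998) and of GelMA-PSS to GelMA of 1.09 (from 1.04 to 1.15). The sign of its log2 ratio against GelMA depended on the scaling, at 0.13 with TMM factors, -0.02 with total counts, -0.33 with TPM and -0.03 after the correction. The exons of Fstl3 share 1157 bases with Prss57, a serine protease gene on the opposite strand. Prss57 was listed with 2162, 1315 and 3032 counts in the order TCP, GelMA and GelMA-PSS, which is 0.553, 0.515 and 0.544 counts for each count of Fstl3. The methods describe the reads as strand-specific, but the sources used here do not say whether the counting used the strand. Reads of the 2 genes can therefore not be told apart with certainty.

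Ratios between genes of the same library do not depend on how the libraries were scaled. Per transcript length, the ratio of Fst to Fstl1 was 1.52 (from 1.49 to 1.54) on TCP, 0.448 (from 0.438 to 0.459) on GelMA and 0.217 (from 0.213 to 0.221) on GelMA-PSS. The ratio of Fst to Fstl3 went from 6.16 on TCP to 3.34 on GelMA and 1.99 on GelMA-PSS. Of the summed TPM of these 3 genes, Fst made up 54.9% on TCP, 28.3% on GelMA and 16.4% on GelMA-PSS. Fstl1 made up 36.2%, 63.2% and 75.4% in the same order, and Fstl3 stayed between 8.22% and 8.91%. These ratios and shares rest on the transcript chosen for each gene, which the intervals do not cover. With the longest transcript of each gene, the TPM on TCP was 149 for Fst and 155 for Fstl1. Which of them was higher on TCP therefore depends on that choice.

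**Figure D2:**
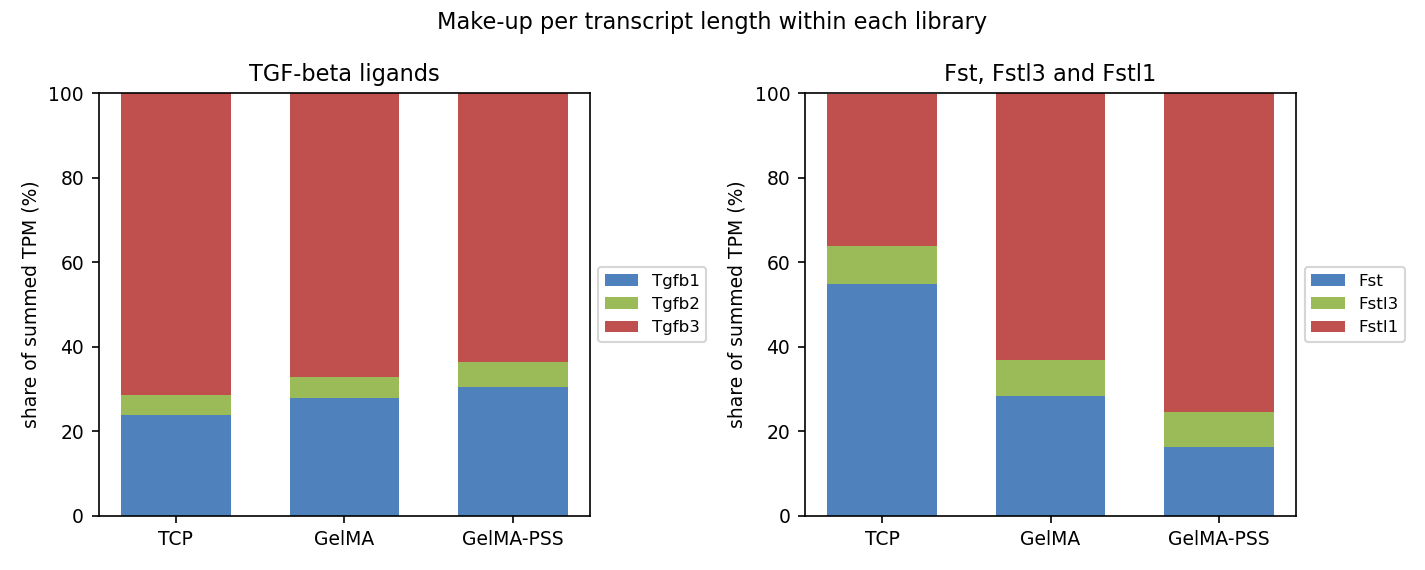
Share in percent of the summed TPM (a level per transcript length) of Tgfb1, Tgfb2 and Tgfb3, left, and of Fst, Fstl3 and Fstl1, right, as stacked bars for the single TCP, GelMA and GelMA-PSS libraries. Tgfb3 held 71.4% to 63.5% of the ligands, while the share of Fst went from 54.9% to 16.4% and that of Fstl1 from 36.2% to 75.4%. That Fst had a larger share than Fstl1 on TCP rests on the transcript chosen for each gene.

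Among the ligands, Tgfb3 was the most abundant per transcript length in every library and Mstn the least. Tgfb3 lies on chromosome 12 from 86056745 to 86079041 and had 36086 counts on TCP, 19846 on GelMA and 28827 on GelMA-PSS. Its CPM was 296 (from 293 to 299), 218 (from 215 to 221) and 159 (from 157 to 161), with no overlap between the intervals. It was 1.36-fold lower on GelMA than on TCP (from 1.33 to 1.38) and 1.86-fold lower on GelMA-PSS than on TCP (from 1.83 to 1.89), just inside the 2-fold threshold. With a transcript of 3383 bases its log2 ratios hardly moved with the correction, from -0.45 to -0.40 against GelMA and from -0.89 to -0.85 against TCP.

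Tgfb1, on chromosome 7 from 25687002 to 25705077, encodes the TGF-β ligand best known from fibrosis. It had 7729 counts on TCP, 5308 on GelMA and 8874 on GelMA-PSS, a CPM of 63.5 (from 62.1 to 64.9), 58.4 (from 56.9 to 60.0) and 49.0 (from 48.0 to 50.0). The order was that of Tgfb3, but GelMA-PSS was only 1.19-fold below GelMA (from 1.15 to 1.23) and 1.30-fold below TCP (from 1.26 to 1.34). The corrected log2 ratios of -0.26 and -0.34 were close to the uncorrected -0.25 and -0.37.

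Tgfb2, on chromosome 1 from 186622792 to 186705989, had 2504, 1507 and 2858 counts on TCP, GelMA and GelMA-PSS. Its CPM was 20.6 on TCP (from 19.8 to 21.4), 16.6 on GelMA (from 15.8 to 17.4) and 15.8 on GelMA-PSS (from 15.2 to 16.4). The hydrogels were below TCP, and the ratio of GelMA-PSS to GelMA, 0.951 (from 0.893 to 1.01), was within counting error. Over the 3 libraries, the ratio of Tgfb3 to Tgfb1 per length was 3.00 on TCP, 2.40 on GelMA and 2.09 on GelMA-PSS, whereas that of Tgfb2 to Tgfb1 was 0.202, 0.177 and 0.201. The make-up of the ligands by share of TPM thus differed less than that of the follistatin family, and Tgfb3 held 71.4%, 67.1% and 63.5%.

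Inhba encodes the subunit that forms activin A as a dimer and lies on chromosome 13 from 16011851 to 16031621. It had 1013 counts on TCP, 961 on GelMA and 987 on GelMA-PSS, a CPM of 8.32 (from 7.82 to 8.85), 10.6 (from 9.93 to 11.3) and 5.45 (from 5.12 to 5.80). GelMA stood above TCP by 1.27-fold (from 1.16 to 1.39), and GelMA-PSS was 1.94-fold below GelMA (from 1.77 to 2.12) and 1.53-fold below TCP (from 1.40 to 1.67). Its log2 ratio against GelMA of -0.84 was the lowest among the members in that comparison with TMM factors and a pseudocount of 1, but Fst was lower after the correction, on the TPM scale and, at -0.578 beside -0.576, with a pseudocount of 5. In GelMA-PSS against GelMA with TMM factors, 2.33% of genes were called lower and 0 members were. The Inhba transcript, with 6390 bases, is the longest of the members, and after the correction the values were -0.53 against GelMA and -0.31 against TCP.

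The ratio of Fst to Inhba transcripts per length was 77.8 on TCP (from 73.0 to 82.9), 29.1 on GelMA (from 27.2 to 31.1) and 36.7 on GelMA-PSS (from 34.4 to 39.2). Both hydrogels thus held fewer Fst transcripts for each Inhba transcript than TCP. The order of the hydrogels turned with the length and GC correction, since the uncorrected ratio was higher on GelMA-PSS than on GelMA, while the corrected log2 ratio against GelMA was lower for Fst (-0.87) than for Inhba (-0.53). For Fstl3 and Inhba the ratio was 12.6 on TCP, 8.69 on GelMA and 18.5 on GelMA-PSS. These ratios pair transcripts of unequal length, and in GelMA-PSS they include the dependence on length described above. They also do not cover all activin transcripts. Inhbb, the gene of another activin β subunit, is listed below and had a CPM of 56.2 on TCP, 58.5 on GelMA and 54.4 on GelMA-PSS, above that of Inhba.

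**Figure D3:**
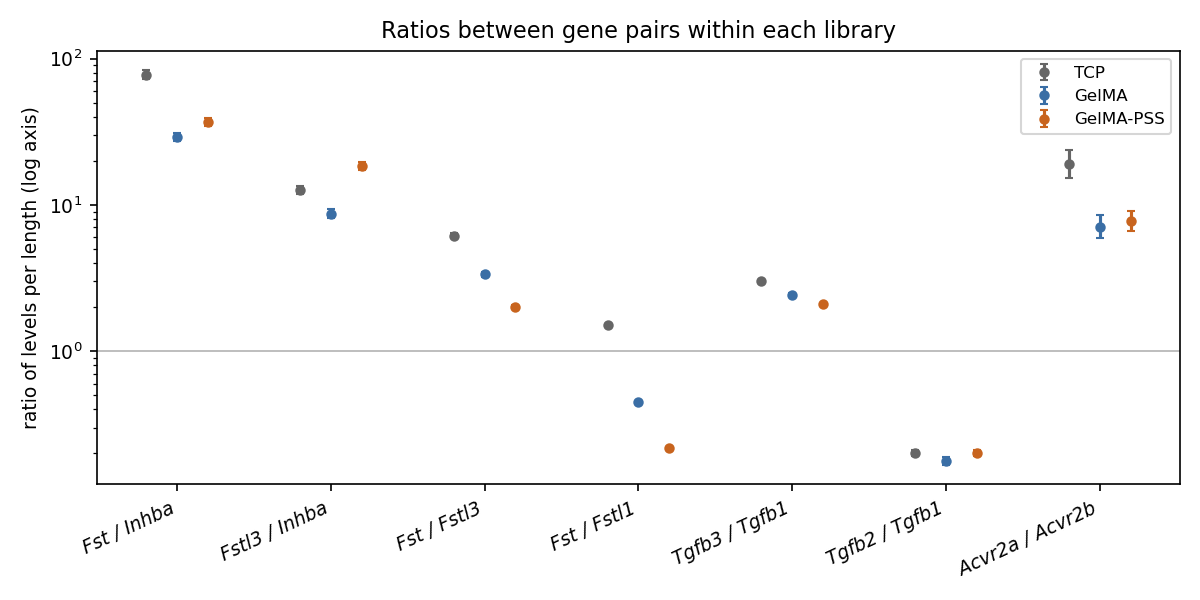
Ratios of the levels per transcript length of 7 gene pairs within each library (log axis), with a point for each of the TCP, GelMA and GelMA-PSS libraries and error bars for the 95% Clopper-Pearson interval, which covers counting error only. The ratio of Fst to Fstl1 goes from 1.52 on TCP to 0.217 on GelMA-PSS, while that of Tgfb2 to Tgfb1 stays between 0.177 and 0.202. The ratios rest on the transcript chosen for each gene, and with the longest transcripts Fst was below Fstl1 on TCP as well.

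Mstn, on chromosome 1 from 53061640 to 53068079, encodes myostatin, the ligand known for limiting muscle mass. It had 2 counts on TCP, 0 on GelMA and 9 on GelMA-PSS. A level of 3 counts, the smallest taken as detected, corresponds to a CPM of 0.0246, 0.0330 and 0.0166 in these libraries, so that only GelMA-PSS was above it, at 0.0497 (from 0.0261 to 0.0944). The interval of that level contains the floor of GelMA, and the exact interval of the ratio to GelMA starts at 0.990. Against TCP the ratio was 3.03, with an interval from 0.626 to 28.8 that spans 1, so no difference from either control was detectable at this depth. Mstn transcripts thus lay at or near the limit of detection in all 3 libraries, beside 2509 counts or more of Acvr2a and 8088 or more of Fst.

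Of the receptor genes, Acvr2a was more abundant per transcript length than Acvr2b in every library. Acvr2a, on chromosome 2 from 48814109 to 48903269, had 4333 counts on TCP, 2509 on GelMA and 3598 on GelMA-PSS, a CPM of 35.6 (from 34.5 to 36.7), 27.6 (from 26.6 to 28.7) and 19.9 (from 19.2 to 20.5). It was 1.29-fold lower on GelMA than on TCP (from 1.23 to 1.35) and 1.39-fold lower on GelMA-PSS than on GelMA (from 1.32 to 1.46). The transcript has 5686 bases, and the correction changed the log2 ratio against GelMA from -0.46 to -0.24 and that against TCP from -0.81 to -0.66. The exons of Acvr2a share 446 bases with Orc4 on the opposite strand, which had a CPM of 54.2, 48.0 and 65.0 in the order TCP, GelMA and GelMA-PSS. For each count of Acvr2a there were 1.52, 1.74 and 3.27 counts of Orc4 in the same order. As for Fstl3, reads from the shared bases cannot be assigned with certainty.

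Acvr2b, on chromosome 9 from 119402118 to 119434995, was close to the limit of 1 CPM and passed it on GelMA alone. It had 84 counts on TCP, 131 on GelMA and 172 on GelMA-PSS, a CPM of 0.690 (from 0.557 to 0.854), 1.44 (from 1.22 to 1.71) and 0.9495 (from 0.818 to 1.10). The interval of GelMA did not overlap those of the other libraries, and GelMA-PSS was 1.52-fold lower than GelMA (from 1.20 to 1.92). The intervals of TCP and GelMA-PSS overlapped, but the ratio of GelMA-PSS to TCP, 1.38 (from 1.05 to 1.81), was beyond counting error. The CPM was 2.09-fold higher on GelMA than on TCP (from 1.58 to 2.78), but at this low level the difference in log2(CPM + 1) was 0.53 and was not called. Because it was kept through its level on GelMA, its being highest there is not a result. Per length, Acvr2a transcripts outnumbered those of Acvr2b by 19.0 (from 15.3 to 23.9) on TCP, 7.05 (from 5.91 to 8.47) on GelMA and 7.70 (from 6.61 to 9.03) on GelMA-PSS.

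Within a library, the order of the members can be compared per transcript length, as TPM. On TCP, Fst (203), Tgfb3 (176) and Fstl1 (134) led, followed by Tgfb1 (58.5), Fstl3 (32.9), Acvr2a (12.5), Tgfb2 (11.8), Inhba (2.61), Acvr2b (0.661) and Mstn (0.0122). On GelMA the order was Fstl1 (223), Tgfb3 (134), Fst (99.9), Tgfb1 (55.8) and Fstl3 (29.9), and on GelMA-PSS it was Fstl1 (217), Tgfb3 (70.6), Fst (47.0), Tgfb1 (33.8) and Fstl3 (23.6). Acvr2a and Tgfb2 lay next to each other in every library, and Inhba, Acvr2b and Mstn held the last 3 places in each. The place of Fst on TCP rests on the transcript chosen, since with the longest transcript of each gene Tgfb3 led with 203, ahead of Fstl1 with 155 and Fst with 149. On GelMA and GelMA-PSS Fst was in the third place with either choice.

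No member was called on GelMA-PSS against both controls at 2-fold, where 1.37% of all genes were higher and 1.16% lower. At 1.5-fold, a threshold the study also names, Fst alone was lower than both controls and 0 members were higher, beside 7.18% and 8.08% of all genes. In the order of the libraries, 6 of the 9 genes kept were lower on GelMA-PSS than on both controls and 1 was higher, against 39.3% and 45.3% of all genes. After the correction 7 were lower and 1 higher, against 40.7% and 40.8%. The 7 include Fstl3 and Tgfb2, whose corrected log2 ratios against GelMA were only -0.025 and -0.055. The order of TCP above GelMA above GelMA-PSS was held by Fst, Acvr2a, Tgfb1, Tgfb3 and, within counting error between the hydrogels, Tgfb2. It was held by 21.2% of all genes. Fstl1 alone had the opposite order by CPM, though not by TPM, and 22.5% of all genes had it.

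**Figure D4:**
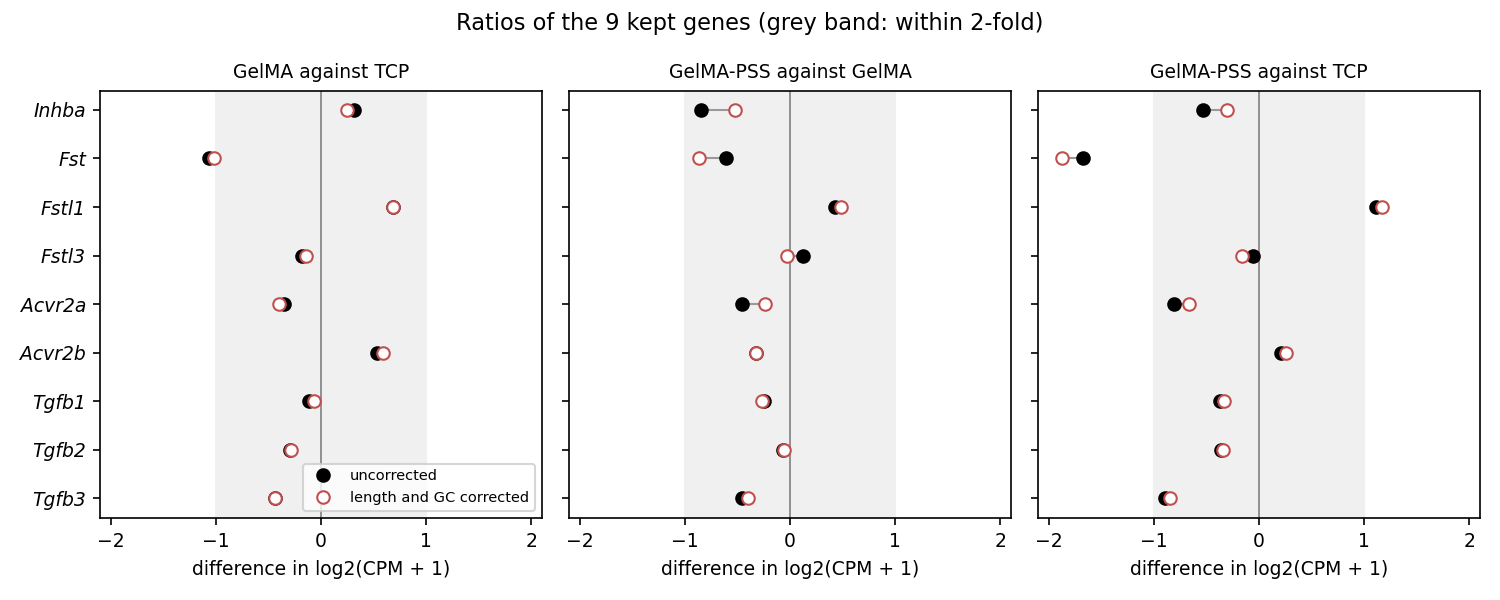
Difference in log2(CPM + 1) for the 9 genes kept in GelMA against TCP, GelMA-PSS against GelMA and GelMA-PSS against TCP, before (filled) and after (open) the correction for transcript length and GC content, with the range within 2-fold in grey and 1 library per substrate. Fst lies outside the grey range in both comparisons with TCP and Fstl1 in GelMA-PSS against TCP, with and without the correction.

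The scaling shifts the background of these counts. In GelMA-PSS against GelMA, 233 genes were called higher and 307 lower with TMM factors, 120 and 506 with total counts alone, and 42 and 1038 with TPM. For GelMA-PSS against TCP the numbers were 490 and 412, 338 and 576, and 149 and 1049, and against both controls they were 180 and 153, 97 and 261, and 31 and 624. Fst was called lower than TCP on GelMA and on GelMA-PSS under each of these scalings, and Fstl1 was called higher on GelMA-PSS than on TCP with TMM factors and with total counts but not with TPM, where its log2 ratio was 0.69 beside a median of -0.32 over all genes.

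By the distance between their pairs of log2 ratios (GelMA against TCP and GelMA-PSS against GelMA), which rests on only 3 libraries, Ccdc150 was among the genes most like Fst, at a distance of 0.138. It was expressed at a low level, with a CPM of 4.04 on TCP, 1.65 on GelMA and 0.745 on GelMA-PSS. The genes most like Fstl1 were Cav2, a caveolin gene, at a distance of 0.0183 and Nt5e, which encodes the ecto-enzyme CD73, at 0.0389. Nt5e had a CPM of 9.84 on TCP, 16.5 on GelMA and 21.9 on GelMA-PSS.

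The other genes of the pathway were taken from 5 lists by role, to be read beside the 39.3% of all genes that were lower than both controls. With total counts and with TPM more of all genes were lower than both controls as well, 6496 against 4657 higher and 9165 against 1981. Counts of the lists on these scales have to be read beside that background and are not given. With the length and GC correction 40.7% of all genes were lower. Of the other ligands, 4 of 10 were kept and 4 (Gdf11, Inha, Inhbb and Gdf1) were lower on GelMA-PSS than on both controls, while 0 passed 2-fold. Inhbb, named after its values were seen, was at -0.045 relative to the nearer control on the log2 scale and was higher than both after the correction, which left 3 lower and 1 higher. Gdf11, the closest relative of myostatin, had a CPM of 21.4 on TCP, 18.6 on GelMA and 13.1 on GelMA-PSS. For Inha, the inhibin α subunit, and for Gdf1, the log2 ratios were -0.21 and -0.25 relative to GelMA, and -0.45 and -0.44 after the correction. The median of the list against GelMA was -0.23, or -0.38 after the correction, beside 0.04 and 0.00 over all genes.

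Of 7 receptor genes kept out of 11, 6 were lower than both controls and 1 higher, and 0 passed 2-fold. After the correction 3 of the 7 were lower, or 42.9%, close to the share of all genes. Tgfbr1, the type I receptor for TGF-β, had a CPM of 35.3 on TCP, 30.9 on GelMA and 17.4 on GelMA-PSS. Its log2 ratio against GelMA of -0.80 became -0.56 with the correction. Tgfbr2, the type II receptor, had a CPM of 210 (TCP), 201 (GelMA) and 150 (GelMA-PSS). Its log2 ratio against GelMA went from -0.42 to 0.20 with the correction, and its transcript has 8092 bases. Tgfbr3l stood near the limit, with a CPM from 1.18 to 2.29. The median of the receptors against GelMA was -0.42, or -0.30 corrected, and against TCP it was -0.19 and -0.03.

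For latency and processing, that is the latent TGF-β binding proteins, activating proteases and integrins, 14 of 19 genes were kept, of which 11 were lower than both controls and 1 higher. Wfikkn2, named after its values were seen, is 1 of the 11 but was kept through its level on TCP alone (CPM of 1.20), so its lower level elsewhere is not a result. Their median transcript had 5288 bases, and with the correction 8 were lower and 2 higher. Thbs1, which encodes the latent TGF-β activator thrombospondin 1, had a CPM of 1230 on TCP, 903 on GelMA and 534 on GelMA-PSS. It was called lower on GelMA-PSS than on TCP, as was Ltbp1, which encodes a latent TGF-β binding protein, with 157, 116 and 75.8. Their log2 ratios against TCP of -1.20 and -1.04 became -0.92 and -0.70 with the correction. Against GelMA the 2 genes called lower were Ltbp2 and Fbn1, named after their values were seen, at -1.06 and -1.13 before and -0.46 and -0.16 after the correction. Itgb8, an integrin subunit that takes part in TGF-β activation, stood at -0.96 relative to GelMA (-0.44 corrected) and at -0.70 relative to TCP (-0.34 corrected).

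Among the SMADs and their regulators, 14 of 15 genes were kept, 12 were lower than both controls and 2 higher (10 and 3 after the correction), and 0 passed 2-fold. The inhibitory Smad7 had a CPM of 12.3 on TCP, 11.4 on GelMA and 5.98 on GelMA-PSS, and its log2 ratio against GelMA was -0.83, or -0.58 corrected. Ski and Skil, which encode repressors of SMAD-dependent transcription, had log2 ratios against GelMA of -0.69 and -0.92, or -0.27 and -0.57 corrected. The median of the list against GelMA was -0.39, and -0.14 with the correction.

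The genes known to be induced by TGF-β or activin did not share a direction. Of 19 kept out of 20, 8 were lower and 4 higher than both controls, and 9 and 7 after the correction (47.4% and 36.8%, against 40.7% and 40.8% of all genes). Pmepa1, a feedback inhibitor, had a CPM of 250 on TCP, 219 on GelMA and 126 on GelMA-PSS and a log2 ratio against GelMA of -0.80, or -0.53 corrected. Smad7 and Skil, with their values above, are counted among the SMADs and their regulators as well, and Ltbp2 and Itgav in latency and processing. All of these are among the 8 lower before the correction, so the counts of the lists are not separate. Timp1, an inhibitor of matrix metalloproteases, had 199, 256 and 470 and was called higher on GelMA-PSS than on TCP. Its transcript has 883 bases, and its log2 ratio against TCP of 1.23 became 0.77 with the correction, below 2-fold. The collagen crosslinking gene Loxl2, named after its values were seen, had a CPM of 26.8 on TCP, 54.8 on GelMA and 79.7 on GelMA-PSS and was called higher than TCP on both hydrogels. Its log2 ratio on GelMA of 1.01 became 0.94 with the correction, below 2-fold, and that on GelMA-PSS of 1.54 became 1.78. Ltbp2 was the only target called lower, on GelMA-PSS against GelMA, at -1.061 (-0.463 corrected). Nox4 and Ctgf, named after their values were seen, were not called on GelMA-PSS against TCP, at -0.897 and -0.906. With the correction they stood at -1.179 and -1.002, lower past 2-fold. The median of the list against TCP was -0.27, and 0.08 with the correction.

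**Figure D5:**
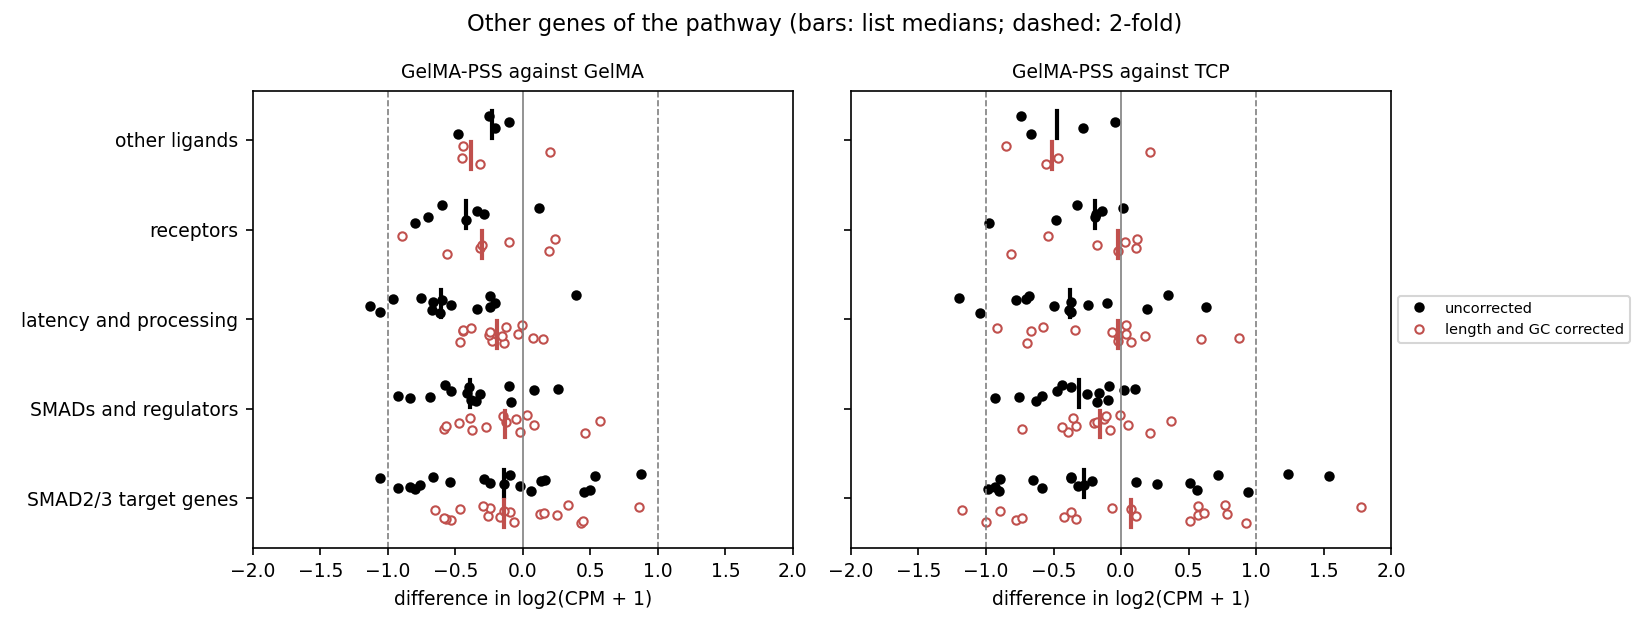
Difference in log2(CPM + 1) of GelMA-PSS against GelMA, left, and against TCP, right, for the kept genes of the 5 lists of other pathway genes, before (filled) and after (open) the correction for transcript length and GC content, with short bars for list medians, dashed lines at 2-fold and 1 library per substrate. The medians of the receptors, of latency and processing and of the SMADs lie nearer 0 after the correction, at -0.30, -0.19 and -0.14 against GelMA, and the target genes spread to both sides.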

How the data were processed

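RNA-seq libraries from 3 substrates were analysed, 1 per substrate, assigned from the sample labels. For each library the authors deposited a file of raw counts by symbol, from reads that the methods call strand-specific. The submitters' processing notes name TopHat, edgeR and the builds mm10 and hg19 without their roles, and the counting tool is not given in the sources used here. The labels name a SMARTER kit, and the methods a TruSeq kit.

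Lines sharing 1 of 35 repeated symbols were summed. TMM factors (edgeR 4.0.16) were 1.02 (TCP), 1.04 (GelMA) and 0.943 (GelMA-PSS). Genes reaching a CPM of 1 in any library were kept. Ratios are differences of log2(CPM + 1). TPM were computed from the counts with 1 GENCODE vM21 (GRCm38) transcript per gene, the one with the longest coding sequence within the basic set. Symbols were matched for 22197 genes directly and 691 by older names, and 350 were not matched. The correction subtracted 2 successive loess fits (span 0.3, statsmodels 0.14.6). Intervals used scipy 1.17.1. They are too narrow if mates were counted separately, which the sources do not say. The code was tested on simulated data.

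The members and the lists were chosen with earlier results of these data known. The text names all members, the 3 genes of each list furthest beyond the nearer control on 1 side of both, and the 2 genes with the nearest pair of ratios to each called member, of which 1 is not reported here. Alternatives covered scaling (with DESeq2 1.42.0), pseudocount, filter, threshold, length and repeated symbols. A planned comparison of the ligand proteins was not run.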

Additional observations from a re-analysis of the deposited data

How the results depend on the processing

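No paired analysis was possible because each substrate has 1 library, and for the same reason no library could be left out. Under the 10 alternatives for each comparison (median-of-ratios and total-count scaling, TPM, pseudocounts of 0.1 and 5, filters, a 1.5-fold threshold, the length and GC correction, and the first line of each symbol), Fst was called lower than TCP on GelMA and on GelMA-PSS, with log2 ratios from -1.07 to -1.01 and from -2.09 to -1.61. Fstl1 was called higher than TCP on GelMA-PSS (0.69 to 1.17) under all but TPM, where 0 members were called higher. At 1.5-fold the members called were 1 (Fstl1) higher on GelMA than on TCP, 2 lower on GelMA-PSS than on GelMA (Inhba and Fst), 3 lower on GelMA-PSS than on TCP (Fst, Acvr2a and Tgfb3) and 1 lower than both controls (Fst). With TPM they were 1 lower than GelMA and than both controls (Fst) and 3 lower than TCP (Fst, Acvr2a and Tgfb3), and with total counts 2 were lower than TCP (Fst and Tgfb3). No called ratio changed sign. Of the ratios not called, those of Fstl3 and Fstl1 against GelMA changed sign under 3 and 1 of the 9 alternatives that alter a ratio.

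With the longest transcript as the length, Fst went to place 3, Fstl1 to 2 and Tgfb3 to 1 on TCP, and Acvr2a to 6 and Tgfb2 to 7 on GelMA-PSS. The length and GC correction took the list medians against GelMA to -0.38 (other ligands), -0.30 (receptors), -0.19 (latency and processing) and -0.14 (SMADs), and those against TCP to -0.026 (receptors), -0.024 (latency and processing), -0.15 (SMADs) and 0.077 (targets).

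Over all genes, the calls higher and lower moved by more than 1.5 times as follows. For GelMA against TCP they were 93 and 39, and 213 and 106 with a pseudocount of 0.1, 30 and 15 with 5, and 461 and 279 at 1.5-fold. For GelMA-PSS against GelMA (233 and 307) they were 356 and 525, 140 and 158, and 1448 and 1423 under these settings, and 87 and 157 with the correction. For GelMA-PSS against TCP (490 and 412) the lower calls were 630 with 0.1, 273 and 196 were called with 5, 1738 and 1509 at 1.5-fold, and 264 higher with the correction. Against both controls (180 and 153) the lower calls were 294 with 0.1, 106 and 77 were called with 5, 1064 and 946 at 1.5-fold, and 57 and 81 with the correction. By construction, a lower threshold or a smaller pseudocount calls more genes, and a larger pseudocount calls fewer. The correction takes out most of the dependence on transcript length, the cause of which was not tested. Depth limits Mstn, at 9 counts or fewer, and Acvr2b, at 172 or fewer.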
